A study of Mus musculus with 106 samples.

Results

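In mouse bone marrow-derived macrophages (BMDM) cultured in medium alone, 144 of 21938 protein-coding genes (0.656%) had a promoter that carried trimethylated histone H3 lysine 4 (H3K4me3) but almost no acetylated histone H3 lysine 27 (H3K27ac). A gene entered this set when a deposited H3K4me3 peak overlapped the promoter, taken as 1000 bp to either side of any annotated start site, in at least 9 of 11 unstimulated BMDM peak lists and a deposited H3K27ac peak did so in at most 2 of 11. The members were chosen from these values, so the levels of both marks in unstimulated BMDM are a description of the choice. For comparison, 12916 genes held both marks in at least 9 of 11 lists and 4753 genes held each mark in at most 2.

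H3K4me3 sits at the start sites of active genes and also at silent genes whose promoters are rich in CpG dinucleotides, where it can be kept together with the repressive mark H3K27me3, which was not measured here. H3K27ac is found at promoters and enhancers in use. Promoters with the first mark and without the second are known from stem cells and differentiated tissues, often at genes for body patterning and for nerve cells.

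The study profiled both marks by ChIP sequencing in lineage-depleted bone marrow cells (called HSC in the labels), in unstimulated BMDM and in BMDM given lipopolysaccharide (LPS) at 100 ng/mL with interferon-γ (IFN-γ) at 10 ng/mL for 16 h. All donors were wild-type C57BL/6J mice aged 12 to 14 weeks, either controls or animals made diabetic with streptozotocin at 42 to 45 mg/kg per day for 5 days and used 6 weeks later with blood glucose above 13.9 mmol/L. BMDM grew for 7 days in L929-conditioned medium with 5 mmol/L glucose for both kinds of donor, and HSC were depleted of cells with CD3, CD4, B220, Ter119 or Gr1, which leaves a mixed progenitor population. Each mark had 6 lists per group of donors and cell state, except 5 for diabetic unstimulated BMDM, which makes 35 lists per mark.

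Lists held 13730 to 277213 peaks, and the read depth behind them is unknown. A gene listed without a peak in a short list may therefore carry the mark below the calling threshold. Macrophage identity markers such as Csf1r and Adgre1 held H3K27ac at a median of 66.7% of 12 genes in unstimulated BMDM lists and also 66.7% in HSC lists. Stem and progenitor markers held it at a median of 81.2% of 16 genes in unstimulated BMDM and 93.8% in HSC, so promoter H3K27ac at these 2 lists did not separate the cell kinds by presence alone. Erythroid and megakaryocyte markers did, with 50% to 83.3% of 12 genes in unstimulated BMDM lists and 91.7% to 100% in HSC lists. Lymphoid, neutrophil and stromal markers had ranges that overlapped. The H3K27ac lists of 3 control BMDM samples went wholly or partly against their stimulation label. Of 7 promoters held by all 6 diabetic LPS+IFN-γ lists and by 0 of 5 diabetic unstimulated lists, control unstimulated samples 5 and 6 each held 5, and control LPS+IFN-γ sample 5 held 1. Of 11 promoters with the opposite pattern, that LPS+IFN-γ sample held 8, and control unstimulated samples 5 and 6 held 0 and 5. Sample 6 was thus mixed, since control unstimulated samples 1 and 2 held 4 and 5 of the 11. Control LPS+IFN-γ sample 4, which was not doubted, held 6 of the 7 and also 6 of the 11. The main BMDM shares and counts are given below with and without these 3 samples.

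Sequence is given for 4 members. Of the 144 members, 104 had an entry in the RefSeq promoter table (GRCm38.p6). The stretches below are the 250 bases before the RefSeq start, read 5′ to 3′ on the gene's strand, with CpG dinucleotides in capitals. Wnt3a and Bhlhe23 were among the members with the strongest H3K4me3 peaks and carried H3K27ac in no HSC list, Dnaaf3 was the member with H3K27ac in the most LPS+IFN-γ lists, and Gpc4 had H3K27ac in every HSC list.
Wnt3a: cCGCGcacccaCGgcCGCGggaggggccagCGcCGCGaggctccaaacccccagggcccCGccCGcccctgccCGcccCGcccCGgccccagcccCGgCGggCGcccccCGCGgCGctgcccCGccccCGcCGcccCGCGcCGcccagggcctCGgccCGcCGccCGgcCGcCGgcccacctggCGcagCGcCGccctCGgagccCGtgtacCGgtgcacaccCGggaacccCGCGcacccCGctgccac
Bhlhe23: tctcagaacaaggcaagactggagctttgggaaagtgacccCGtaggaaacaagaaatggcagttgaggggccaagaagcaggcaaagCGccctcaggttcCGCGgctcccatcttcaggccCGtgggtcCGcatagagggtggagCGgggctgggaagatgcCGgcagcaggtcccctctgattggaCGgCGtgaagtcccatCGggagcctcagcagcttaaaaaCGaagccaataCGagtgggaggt
Dnaaf3: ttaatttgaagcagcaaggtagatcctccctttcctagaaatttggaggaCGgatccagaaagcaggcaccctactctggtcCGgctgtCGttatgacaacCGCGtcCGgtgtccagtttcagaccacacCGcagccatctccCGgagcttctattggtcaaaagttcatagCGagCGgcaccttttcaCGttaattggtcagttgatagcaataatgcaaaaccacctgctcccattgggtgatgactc
Gpc4: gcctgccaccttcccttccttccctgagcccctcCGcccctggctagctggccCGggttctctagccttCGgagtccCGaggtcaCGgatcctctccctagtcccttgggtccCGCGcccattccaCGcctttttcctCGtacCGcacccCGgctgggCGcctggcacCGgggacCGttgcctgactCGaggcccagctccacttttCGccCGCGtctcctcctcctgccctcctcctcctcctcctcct
All 4 lie on the minus strand, at chr11:59290752-59291001 for Wnt3a, chr2:180776901-180777150 for Bhlhe23, chr7:4532466-4532715 for Dnaaf3 and chrX:52164924-52165173 for Gpc4. The Wnt3a stretch held 41 CpG dinucleotides, that of Gpc4 18, that of Bhlhe23 13 and that of Dnaaf3 11. The Gpc4 stretch lies downstream of the annotated start that was used for its peaks, since the RefSeq start is 329 bp from that one. Gria3 is named only.

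Over the 104 members with a sequence, the median was 8.5 CpG dinucleotides in the 250 bases, against 16 for 10042 genes with both marks and 11 for all 16538 genes with an entry. Sequence was also read from the genome around each annotated start. Promoters were called high-CpG when some 500-base window within 1000 bp of the start had over 55% G and C and a CpG observed/expected ratio over 0.75, low-CpG when no window had a ratio over 0.48, and intermediate otherwise. By this measure 60 members (41.7%) were high-CpG, 54 (37.5%) intermediate and 30 (20.8%) low-CpG. Genes with both marks were 78.6%, 16.8% and 4.58% in the same order, and 87.0% of genes with neither mark were low-CpG. The members thus spread over all 3 classes between these sets. Seen from the other side, members made up 0.538% of high-CpG, 1.90% of intermediate and 3.12% of low-CpG genes with H3K4me3 in at least 9 of 11 unstimulated lists.

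Short motifs were counted on both strands of the 300-base RefSeq windows, which run 50 bases past the start. The TATA box TATAAA stood in 14.4% of 104 members, 6.21% of genes with both marks and 12.7% of all genes with an entry. The E-box CACGTG stood in 8.65% of members and 8.10% of all. The interferon response element (GAAA repeated after any 2 bases) was in 0.962% of members and 3.50% of all genes, the NF-κB motif (GGG and TTTCC with any 2 bases between) in 0.962% and 1.53%, and the STAT motif TTCNNNGAA, which can overlap the interferon element, in 3.85% and 7.81%. The cyclic AMP response element TGACGTCA was in 0.962% of members and 2.44% of all genes, and the NRF1 palindrome in 0 of 104 members and 1.40% of all. These are matches of letters within this window only.

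In where they lie, members were partly like other genes without H3K27ac. The start of another gene lay within 1000 bp of 2.78% of members and 2.51% of the 5545 genes with H3K27ac in at most 2 unstimulated lists, against 13.6% of all genes and 20.6% of genes with both marks. A single annotated start site was given for 48 members (33.3%), against 43.6% of the genes low in H3K27ac and 22.3% of all genes. Chromosome X held 22 members (15.3%), while it held 9.56% of the genes low in H3K27ac and 4.32% of all genes. Of the X-linked genes with H3K4me3 in at least 9 of 11 unstimulated lists 6.04% were members, and of the autosomal ones 0.836%. At genes with both marks, the H3K27ac promoter peaks of X-linked genes had a median rank of 9.57% and those of autosomal genes 5.67%, where 0% is the strongest peak of its list by −log10 p and 100% the weakest, while their median fold enrichments were 7.51 and 7.30. Pairs of members can share a promoter: Wfdc8 and Wfdc6b start 104 bp apart and had the same values in every list.

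The H3K4me3 peaks that chose the members were weaker and narrower than usual. Their median rank in the unstimulated lists was 34.2%, their fold enrichment over the local background, as the peak caller gave it, was 4.38 and their width 561 bp. Genes with both marks had a median rank of 4.88%, a fold enrichment of 5.89 and a width of 889 bp. Where members did have an H3K27ac peak in unstimulated BMDM, which was so for 115 of them in at least 1 list, it ranked at a median of 71.3% with a fold enrichment of 3.29, against 5.78% and 7.31 at genes with both marks. Distances to H3K27ac were taken from the closest start site of each member to the edge of the nearest unstimulated peak. The median distance was 22970.5 bp, and it was at most 2000 bp for 5 members and at most 10000 bp for 38. For the other members the median distance was longer than 10000 bp.

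Just inside the H3K27ac threshold, 79 members held a peak in 2 of 11 lists, and just outside it 153 genes with the same H3K4me3 rule held it in 3 of 11. Among the latter, Pou4f1, a homeodomain factor of sensory neurons, had H3K4me3 in 11 unstimulated lists, and Pcdh8, a protocadherin, also in 11. Just inside the H3K4me3 threshold, 30 members held it in 9 of 11 lists, among them Wnt8b and Disp2, and 51 genes such as Dbx2 held it in 8.

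**Figure D1:**
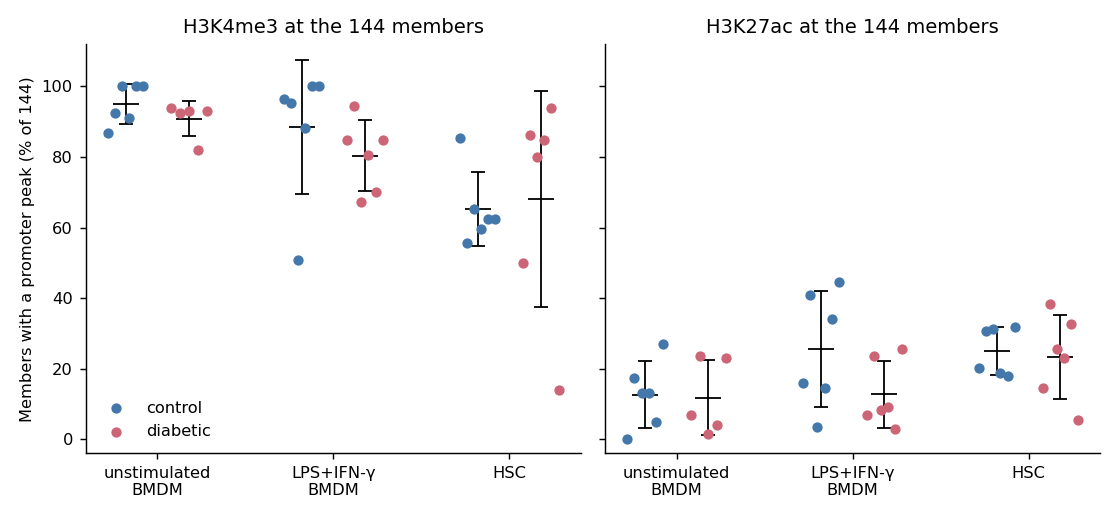
Share of the 144 members with an H3K4me3 (left) or H3K27ac (right) promoter peak, in percent, for each peak list (points) of control and diabetic samples in the 3 cell states, with the mean and SD of each group of 5 or 6 lists (bars). H3K4me3 was at a mean of 93.1% in unstimulated BMDM, which chose the members, and of 66.6% in HSC, where 1 diabetic list held 13.9%.

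Genes for communication between nerve cells were the best represented class. Of 123 neurotransmitter receptor genes 13 (10.6%) were members, against 0.656% of all genes. The list of morphogens, growth factors and their receptors held 8 of 148 (5.41%), synaptic proteins 4 of 99 (4.04%), cadherins and protocadherins 4 of 113 (3.54%), and homeobox and other developmental transcription factors 6 of 309 (1.94%). Of the 23 lists, 11 held no member, among them interferon-stimulated genes (52 genes), macrophage inflammatory response genes (56), axon guidance genes (75) and germline genes (80). All cell type marker lists were also at 0. At the 0.656% of all genes, lists of such sizes would hold few members or none, so these 0s say little about the classes. Olfactory and vomeronasal receptors had 2 of 1420 and zinc finger protein genes 3 of 418. Taken over all lists, 50 members were in at least 1 and the other 94 were in none.

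**Figure D2:**
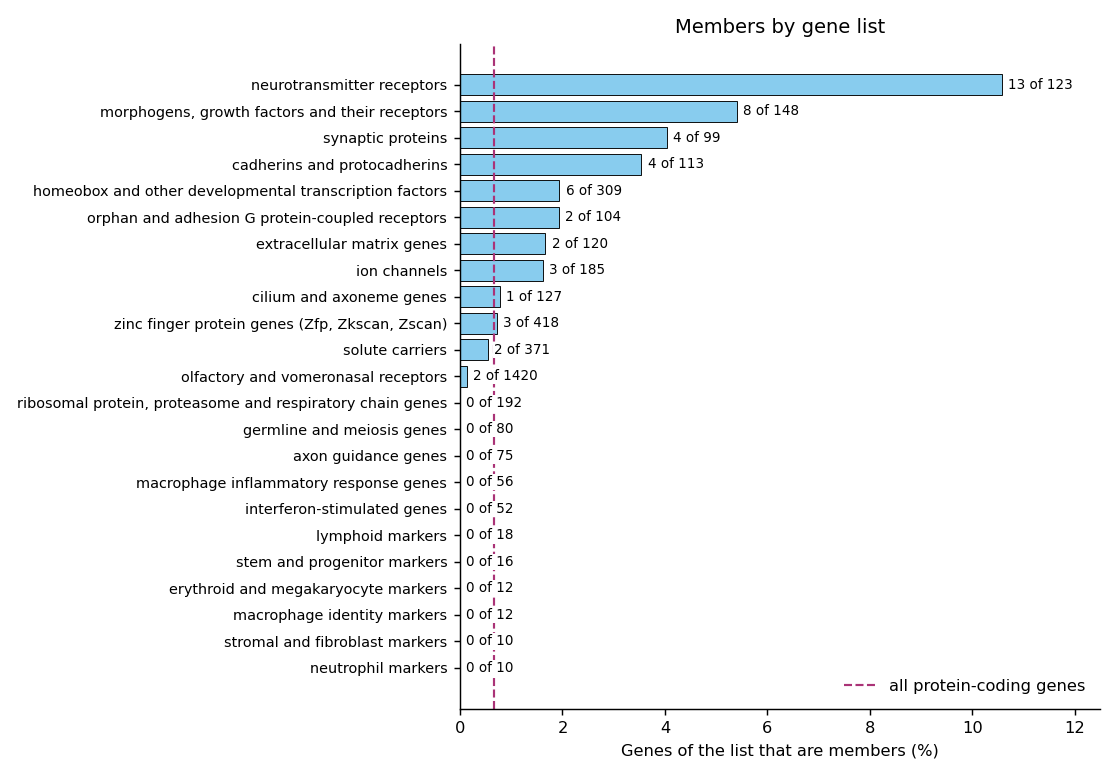
Percentage of the genes of each of 23 lists that are members (bars, with counts), beside the 0.656% of all 21938 protein-coding genes (dashed line). Neurotransmitter receptors reached 10.6% and morphogens 5.41%, and 11 lists held none.

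The morphogens were led by Wnt3a, a secreted signal of body axis formation. Its H3K4me3 promoter peak was in 11 of 11 unstimulated, 12 of 12 LPS+IFN-γ and 12 of 12 HSC lists, with a fold enrichment in HSC from 2.30 to 7.06 and a median of 5.05. H3K27ac was in 2, 1 and 0 lists in the same order. The other members of this list were Wnt4, Wnt8a and Wnt8b, the Wnt receptor gene Fzd10, the secreted signal Shh, the growth factor Gdf10 and the neurotrophin Ntf3. In HSC 7 of the 8 kept H3K4me3 in at least 9 of 12 lists, and Wnt8a, in 4, did not. The 8 were less alike in H3K27ac, which was in a median of 2.5 HSC lists and in up to 7, for Wnt8a.

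The 6 developmental transcription factors included Bhlhe23, which acts in retinal neurons, Irx4, of the heart ventricle, Sox3, of the hypothalamus and testis, and Osr1, of kidney and heart. Each of the 6 had H3K4me3 in 9 to 12 HSC lists. Bhlhe23 held it in 12 HSC lists at a fold enrichment of 3.08 to 8.29 (median 5.06), and its median was 5.86 in LPS+IFN-γ BMDM. In HSC 5 of the 6 had H3K27ac in at most 2 lists and Sox3 had it in 5, and in LPS+IFN-γ BMDM none of the 6 had it in more than 2.

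The 13 neurotransmitter receptor genes covered glutamate receptors (Gria2, Gria3, Gria4, Grik3, Grin2b), receptors of inhibitory transmitters (Glra1, Gabrb2, Gabrq), the dopamine receptor Drd2, serotonin receptors (Htr2c, Htr3b), the nicotinic subunit Chrnb2 and the somatostatin receptor Sstr1. All 13 had H3K4me3 in at least 9 LPS+IFN-γ lists and 6 had it in at least 9 HSC lists. Gria2 and Gria3, paralogs for subunits of AMPA receptors, differed. Gria2 had H3K4me3 in 11 and H3K27ac in 0 HSC lists. Gria3 had H3K4me3 in 6 and H3K27ac in 11, and it held H3K27ac in 8 LPS+IFN-γ lists against 1 for Gria2.

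Among synaptic proteins, the vesicle protein gene Sv2c had H3K4me3 in 11 HSC lists and H3K27ac in 9, while Cplx3, Cntnap5c and Cntn4 had no HSC list with H3K27ac. The potassium channel gene Kcna1 had H3K4me3 in 12 HSC lists and the calcium release channel gene Ryr2 in 12, while the third ion channel, Trpa1, had it in 6. All 4 cadherins and protocadherins (Cdh11, Cdh20, Pcdha1 and Pcdhga3) had H3K27ac in 0 HSC lists.

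LPS+IFN-γ is known to bring H3K27ac to the promoters of inflammatory genes, so the members were followed after stimulation. Since the unstimulated lists chose the members, the change is given without a test. H3K27ac was at 12.2% ± 9.52 of members (SD, n = 11 lists) in unstimulated BMDM and 19.16% ± 14.5 (n = 12) after LPS+IFN-γ, which is 6.91 percentage points more. Single lists ran from 0% to 27.1% and from 2.78% to 44.4%, and the 2 states overlapped, with 3 LPS+IFN-γ lists (34.03%, 41.0% and 44.4%, all of control samples, the first being the doubted one) above every unstimulated list. Within control samples the means were 12.62% and 25.6%, a change of 12.96 points, and within diabetic samples 11.8% and 12.7%, a change of 0.926 points. Over all protein-coding genes the means were 67.4% and 66.1%. Without the 3 doubted samples the means were 11.4% and 17.8%, and within control samples 10.9% ± 7.55 (n = 4) and 23.9% ± 17.9 (n = 5). Since the unstimulated lists had been picked over for low H3K27ac, genes were also chosen by the same rule in one donor group and read in the other. For 370 genes chosen in control lists, the diabetic lists held H3K27ac at 27.6% ± 20.0 (n = 5) unstimulated and 15.0% ± 8.98 (n = 6) with LPS+IFN-γ. For 310 genes chosen in diabetic lists, the control lists held it at 32.5% ± 18.9 and 32.7% ± 19.7 (n = 6 each). All 3 doubted samples were control samples: 2 of them helped to choose the 370 genes, and all 3 were read for the 310. Without them, in readings added after the data were seen, 704 genes chosen in 4 control lists (H3K4me3 in at least 3, H3K27ac in at most 1) were at 32.4% ± 20.6 and 18.7% ± 10.9 in diabetic lists, and the 310 genes were at 33.3% ± 17.3 (n = 4) and 31.0% ± 21.5 (n = 5) in control lists. In none of these 4 readings was the mean after LPS+IFN-γ more than 0.269 points above the unstimulated mean.

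H3K27ac was in at least 9 of 12 LPS+IFN-γ lists for 1 member (0.694%), against 0.144% of the 5545 genes with H3K27ac in at most 2 unstimulated lists, whatever their H3K4me3. That member was Dnaaf3, which encodes an assembly factor of ciliary dynein arms. Its H3K27ac promoter peak was in 0 unstimulated lists, in 9 LPS+IFN-γ lists at a fold enrichment of 2.51 to 6.35 (median 4.06) and in 9 HSC lists. Without the doubted samples 0 members were in at least 75% of the LPS+IFN-γ lists. Gria3 followed with 8 lists, then the serotonin receptor gene Htr3b, the keratin gene Krt17 and the glutathione transferase gene Gstp2 with 7 each. Their median fold enrichment stayed between 2.99 and 4.22, below the 8.25 of genes with both marks. At the other end, 91 members (63.2%) kept H3K27ac in at most 2 of 12 LPS+IFN-γ lists, against 94.9% of the 5545 genes. Without the doubted sample it was in at most 2 of 11 lists, a looser cut, for 100 members. H3K4me3 was in at least 9 of 12 LPS+IFN-γ lists for 120 members (83.3%), against 98.9% of all genes with H3K4me3 in at least 9 of 11 unstimulated lists, and without the doubted sample for 98 members in at least 9 of 11, which is a stricter cut. No interferon-stimulated or inflammatory response gene of the lists was a member. With 0.656% of all genes as members, lists of 52 and 56 genes could easily hold none.

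**Figure D3:**
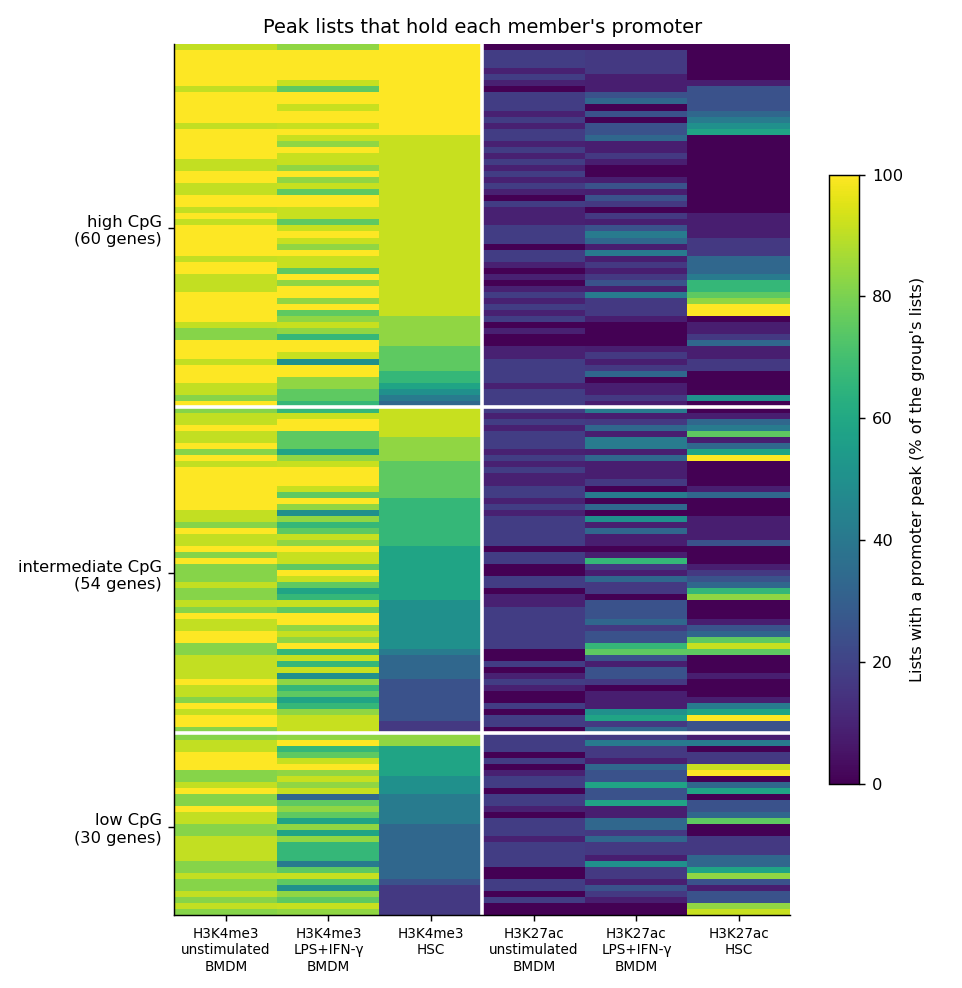
Percentage of peak lists (color, 0 to 100) with a promoter peak for each of the 144 members (rows), by mark and cell state (columns, 11 or 12 lists each), with members ordered within 3 CpG classes by their HSC H3K4me3. H3K4me3 in HSC stayed near 100% in the high-CpG block (90.0% of its members in at least 9 of 12 lists) and was low in the low-CpG block (6.67%).

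The HSC population holds progenitors of macrophages, and its lists had no part in the choice. H3K4me3 was at 66.6% ± 21.8 of members (n = 12 lists, 13.9% to 93.8%) in HSC, against 65.2% of all genes. The lowest value was that of diabetic sample 6, whose list of 13730 peaks was the shortest of all, and without it the share was 71.4% ± 14.8 (n = 11). H3K4me3 was in at least 9 of 12 HSC lists for 71 members (49.3%), against 90.3% of all genes with H3K4me3 in at least 9 unstimulated lists. H3K27ac was at 24.2% ± 9.27 of members (5.56% to 38.2%) in HSC, and in at least 9 of 12 lists for 17 members (11.8%), against 2.18% of all genes with H3K27ac in at most 2 unstimulated lists. It was in 0 HSC lists for 50 members (34.7%), against 78.5% of those genes.

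Base composition of the promoter went along with the HSC state. High-CpG members had H3K4me3 in a median of 11 HSC lists, intermediate members in 7 and low-CpG members in 4.5. In at least 9 of 12 lists it was held by 54 of 60 high-CpG (90.0%), 15 of 54 intermediate (27.8%) and 2 of 30 low-CpG members (6.67%). Genes with both marks showed the same order with 98.6%, 85.8% and 43.0%. The H3K4me3 peaks of the classes also differed in strength in unstimulated BMDM, with median ranks of 26.5%, 37.5% and 48.8%, and the part of peak strength in the order of the HSC shares was not tested. H3K27ac in HSC had a median of 1, 1 and 3 lists.

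**Figure D4:**
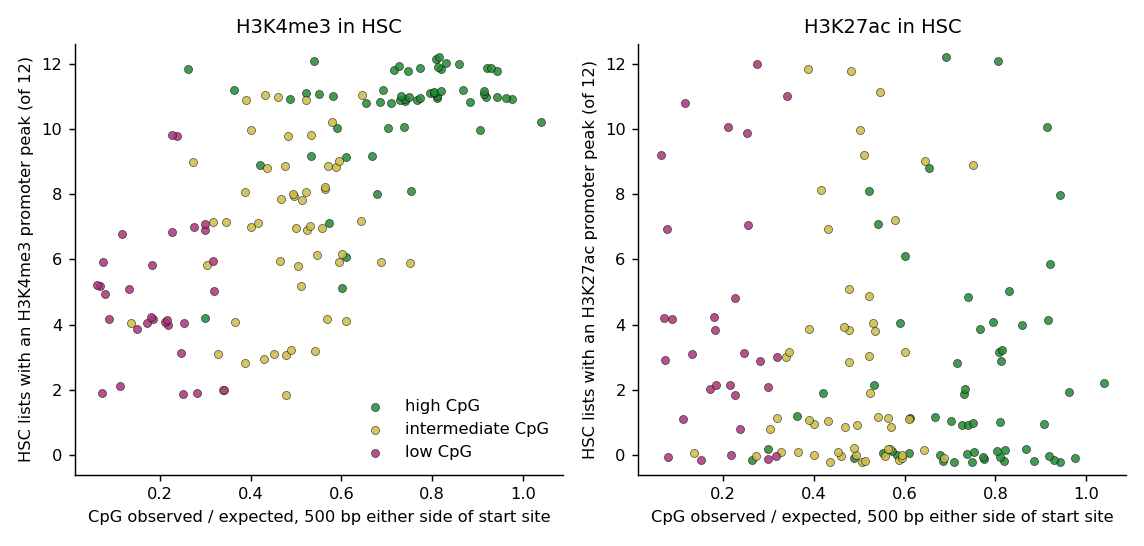
HSC lists (of 12) with an H3K4me3 (left) or H3K27ac (right) promoter peak against the CpG observed/expected ratio of the 500 bp either side of the start site, for each of the 144 members (points, with a small vertical shift so that they can be told apart), colored by CpG class. Most high-CpG members lie at 10 to 12 lists for H3K4me3 and most low-CpG members at 2 to 7, while H3K27ac runs from 0 to 12 in all classes.

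In HSC 44 members (30.6%) had the same state as in unstimulated BMDM, with H3K4me3 in at least 9 of 12 and H3K27ac in at most 2 of 12 lists; 1.796% of all genes did. Asked the other way, 336 genes met a rule of at least 10 and at most 2 of 12 HSC lists, and 35 were shared, which is 24.3% of the members and 10.4% of the HSC genes. The state was kept in both LPS+IFN-γ BMDM and HSC by 33 members (22.9%), against 0.547% of all genes. Without the doubted LPS+IFN-γ sample 32 did. The 33 included Wnt3a, Wnt8b and Shh, the transcription factor genes Bhlhe23, Irx4 and Osr1, the receptor genes Gria2, Grik3, Grin2b, Drd2 and Glra1, the calcium channel gene Ryr2 and Dio3, whose product inactivates thyroid hormone. In 6 members (4.17%) both marks were in at least 9 HSC lists, against 56.6% of all genes. In 11 (7.64%) H3K27ac was in at least 9 and H3K4me3 in at most 8, near the 7.20% of all genes.

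HSC and LPS+IFN-γ lists, neither of which chose the members, were compared gene by gene by Fisher's exact test (two-sided, 12 against 12 lists) with Benjamini-Hochberg adjustment over all genes that could reach a p of 0.05. HSC were not stimulated, so differentiation and stimulation cannot be told apart here. For H3K27ac 63 of the 144 members could be tested. With an adjusted p under 0.05, 11 members were called (17.5% of those tested, background 9.81% in either direction), of which 10 were higher in HSC (15.9%, background 6.81%). Among all genes with H3K27ac in at most 2 unstimulated lists that could be tested, 22.2% were higher in HSC, and LPS+IFN-γ BMDM are the same kind of cell as the BMDM that chose the members, so the direction of these calls was favored by the rule. Leaving out any 1 LPS+IFN-γ or HSC sample, the doubted one included, gave 11 to 13 calls in all. With the members chosen again without 1 unstimulated sample, and thereby by a stricter rule, 55 to 79 members gave 4 to 8 calls. With only the 20000 strongest peaks of each list, 8 of the 11 genes lost the call, and Gpc4, Gstp3 and A830031A19Rik kept it. Read within control lists alone (6 against 6) 0 members were called, with 5 at an unadjusted p under 0.05 by Fisher's exact test, and within diabetic lists 0 and 8. With 6 against 6 lists Fisher's exact test cannot go below p = 0.00216. A call within 1 donor group thus needed many genes at that p, and these 0s do not bear on the 11 calls.

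The most different member was Cpa1, which encodes a digestive enzyme of the pancreas. Its H3K27ac promoter peak was in 11 HSC lists, at a fold enrichment of 2.92 to 6.17 (median 4.003), and in 0 LPS+IFN-γ lists (Fisher's exact test, adjusted p = 0.00147). Gpc4, a heparan sulfate proteoglycan of the cell surface, had H3K27ac in 12 HSC lists at 3.27 to 11.4 (median 7.103) and in 2 LPS+IFN-γ lists at 2.98 and 3.35 (adjusted p = 0.00449 by the same exact test). Fhl1, a LIM domain protein of muscle, also had it in 12 against 2. The lectin gene Clec4g and the nucleoside diphosphate kinase family gene Nme5 had it in 10 against 0. In all 5 of these, the HSC lists of both donor groups held the peak and at most 2 LPS+IFN-γ lists did.

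The others were Gstp3, a glutathione transferase gene (12 against 3 lists, exact test, adjusted p = 0.0125), the zinc finger gene Zfp711 and the bile acid transporter gene Slc51a (10 against 2, adjusted p = 0.0456 for each by the exact test), and, named after their values were seen, Rai2 (9 against 1) and A830031A19Rik (12 against 4). Gstp3 and its neighbor Gstp2 are paralogs, and whether reads were divided between them was not tested. A830031A19Rik, whose start lies 3002 bp from that of the hematopoietic factor gene Bcl11a, lost its call at promoter windows of 500 and 2000 bp. Gm36079, also named after its values were seen, was the one called the other way, with H3K27ac in 0 HSC and 8 LPS+IFN-γ lists (exact test, adjusted p = 0.0267). Of the 11 called members, 4 were X-linked (Fhl1, Gpc4, Rai2 and Zfp711), as were 22 of all 144 members (15.3%). The X-linked share of the tested members and of all called genes is not given here, so nothing is read from this count. These 4 each had H3K4me3 in 11 HSC lists. Clec4g, Cpa1 and Slc51a had it in 2, 2 and 4.

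**Figure D5:**
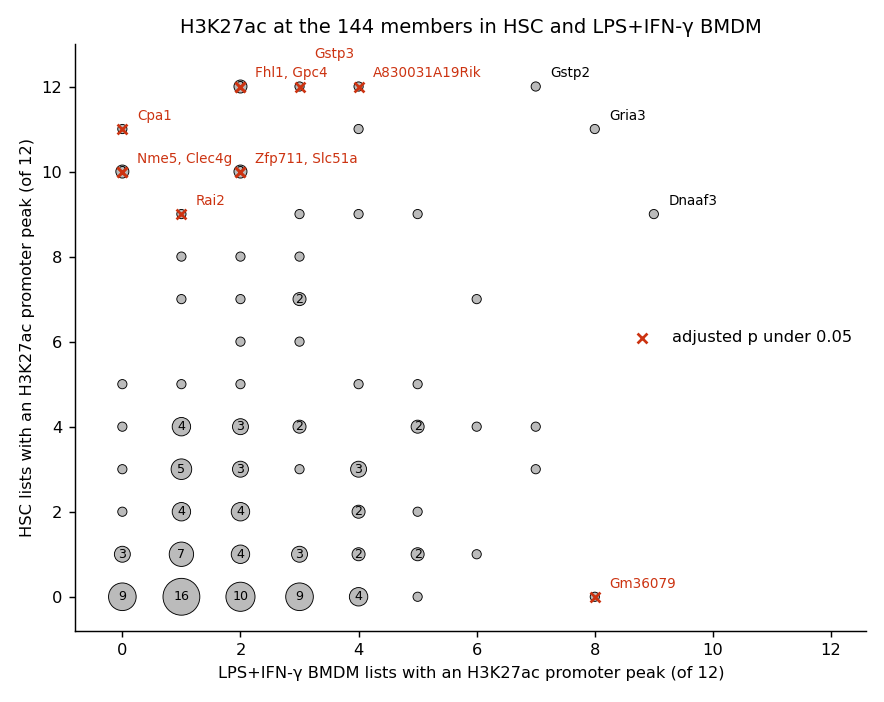
Number of HSC lists (vertical axis, of 12) against the number of LPS+IFN-γ BMDM lists (horizontal axis, of 12) with an H3K27ac promoter peak for the 144 members, with circles scaled and numbered by the members at each point and crosses for an adjusted p under 0.05 by Fisher's exact test. Of the crosses, 10 members lie at 9 or more HSC lists and Gm36079 alone lies at 0 HSC and 8 LPS+IFN-γ lists.

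For H3K4me3 78 members could be tested, and 3 were lower in HSC (3.85%, background 2.96%), which is near the share of all genes, in the direction that the rule favors. They were Prss48, a serine protease gene, Clec4g, and Sycn, a protein gene of pancreatic secretory granules, each with H3K4me3 in 2 HSC and 11 LPS+IFN-γ lists (Fisher's exact test, adjusted p = 0.0337 for each). The HSC peaks of Prss48 had fold enrichments of 2.10 and 4.60 and those of Sycn 2.90 and 2.97, against medians of 3.74 and 3.59 in LPS+IFN-γ BMDM. None was higher in HSC (background 0.0308%; 0 members also at an unadjusted p under 0.05). The count of 3 moved with single samples: it was 14 without diabetic HSC sample 5 or without control HSC sample 1, 11, 9 and 7 without diabetic HSC samples 2, 4 and 3, 10 without diabetic LPS+IFN-γ sample 5 and 8 without control LPS+IFN-γ sample 3. It was 1 when members were chosen without diabetic unstimulated sample 2 or 4 or control unstimulated sample 1, 2, 3, 4 or 5. Without 4 H3K4me3 lists of BMDM whose scaling was unclear in earlier results it was 0, and it was 0 within control or diabetic lists alone, where 7 and 1 members had an unadjusted p under 0.05 by Fisher's exact test. The limit on calls within 1 donor group, given above for H3K27ac, holds here as well.

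Diabetic and control samples were compared within HSC and within LPS+IFN-γ BMDM for each mark by the same test, 6 against 6 lists. No member was called in any of the 4 comparisons (background 0.00% in each) and 0 members had an unadjusted p under 0.05. Over all genes 0 were called and 15 and 17 had an unadjusted p under 0.05 for H3K27ac, and 6 and 7 for H3K4me3, with HSC given first each time. The testable members were 12 and 14 for H3K27ac and 34 and 10 for H3K4me3. After LPS+IFN-γ the share of members with H3K27ac was 25.6% ± 16.5 in control and 12.7% ± 9.51 in diabetic lists (n = 6 each), ranges that overlapped (3.47% to 44.4% and 2.78% to 25.7%). In HSC it was 25.1% ± 6.77 and 23.3% ± 11.9. A difference between donor groups at single members was not detectable with 6 lists each.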

How the data were processed

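ChIP sequencing peak lists for H3K27ac (antibody ab4729) and H3K4me3 (ab8580) were analysed for 70 of 106 samples; the 36 input samples were not used. Per the submitters' processing notes, the tools included Bowtie2 2.2.6, MACS2 2.2.7.1, Picard and bedtools 2.19.1 on GRCm38/mm10. The deposited lists give each peak a score, a ratio (fold enrichment over the local background), −log10 p and −log10 q, made by the authors per sample; these values were used only within a list, for ranks and filters. Read depth is not in the lists, so list length was its only proxy. The number of samples limits precision, and where labels do not say that sample numbers are separate mice, p-values measure only the spread between these samples.

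Promoters were 1000 bp either side of 93513 GENCODE M21 start sites, and an overlap of 1 bp counted. Gene by gene tests were Fisher's exact tests with Benjamini-Hochberg adjustment over all testable genes (scipy 1.17.1, pandas 2.3.3), tested on simulated data. Alternatives were other windows, peak filters, rules, samples left out and a replicate block. Members and gene lists were chosen with earlier results of these data known. Genes were named by rule: the most LPS+IFN-γ or HSC H3K27ac lists, the fewest HSC H3K4me3 lists, the strongest unstimulated H3K4me3 peaks, and the edges of the thresholds. Other genes were named after their values were seen. Some members are not reported here by name.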

Additional observations from a re-analysis of the deposited data

Results flagged for a closer look

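For each group of 5 or 6 lists, the list farthest from its nearest neighbor was compared with the range of the group (Dixon's test at the 95% level). Of 12 groups, 3 held a list that stood apart in the share of members with an H3K4me3 promoter peak, where chance gives about 1 in 20 groups. The unstimulated lists chose the members, so that rate does not apply to the unstimulated groups, which include the first of the 3 below. Diabetic unstimulated BMDM sample 5 was the lowest of its group at 81.9%, control LPS+IFN-γ BMDM sample 3 was the lowest of its group at 50.7%, and control HSC sample 1 was the highest of its group at 85.4%. Their lists held 66146, 74565 and 109214 peaks, which were the shortest of the first and second groups and the longest of the third.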

How the results depend on the processing

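The number of members depended on the rule. It was 238 with peaks of −log10 q at least 3 (114 of the 144 kept), 837 with the top 20000 peaks of each list (2 kept), 329 with both marks read at the same start site, 29 with H3K27ac in 0 of 11 lists, 65 with H3K4me3 in 11 of 11, 82 without the 3 doubted samples and 226 without them at thresholds of 7 and 2 of 9 (a setting added after seeing the data). It was 370 from control lists and 310 from diabetic lists alone, and 55 to 144 leaving out 1 sample. The change with LPS+IFN-γ was -2.22 points with the top 20000 peaks and -12.5 for genes chosen in control and read in diabetic lists, and 4.61 to 10.8 leaving out 1 sample. The share of members with H3K27ac was 13.5% to 20.6% in LPS+IFN-γ BMDM and 21.8% to 25.9% in HSC leaving out 1 sample, and 34.5% in HSC with H3K27ac in 0 of 11. That with H3K4me3 in HSC was 64.1% to 74.6%, and 89.8% with the top 20000 peaks.

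The 11 H3K27ac calls became 117 (top 20000), 3 (0 of 11), 5 (11 of 11), and 6 and 17 without the doubted samples, and were 4 to 13 leaving out 1 sample. The 3 H3K4me3 calls became 8 (−log10 q), 5 (top 20000), 9 (same start site), 1 (11 of 11) and 0 (4 lists of unclear scaling left out), and were 1 to 14. Both counts were 0 with 6 against 6 lists, that is within 1 donor group or chosen in one and read in the other. Fisher's exact test cannot go below p = 0.00216 there, so a call after adjustment needed many genes at that p, and these 0s do not bear on the calls. For diabetic against control it was 0 to 0. Of 700 repeats of called single genes 637 held, 63 lost the call and 0 turned. Repeats that changed only the unstimulated lists or the rule for members could not alter a single gene's test. They held by design, so the 637 are not a measure of how stable the calls were. Sample numbers did not pair HSC with LPS+IFN-γ BMDM, or diabetic with control samples (correlations -0.29 to 0.234 over 6 pairs). Whether they pair unstimulated with LPS+IFN-γ BMDM was not tested, so the change with LPS+IFN-γ is given between unpaired groups. With the replicate block, an exact sign test, 0 members were called for either mark, 14 each at an unadjusted p under 0.05. List length limits what a missing peak can show.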
